A study of Rattus norvegicus with 24 samples.

Results

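This account follows 9 genes of glucocorticoid signalling and metal binding in rat thyroid glands: the glucocorticoid receptor Nr3c1, the receptor targets Fkbp5, Tsc22d3, Sgk1, Dusp1 and Zbtb16, the cortisone-reducing enzyme Hsd11b1, and the metallothioneins Mt1a and Mt2A. They were taken by name: every non-control probe whose gene name on the array equalled one of these symbols, with letter case ignored, was a member. This gave 11 probes for the 9 genes, out of 30367 probes, with 2 probes each for Nr3c1 and Mt2A. All 11 were well above background on every array, none was saturated, and all 9 genes were among the 20284 tested.

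Thyroid glands of RccHan Wistar rat pups had been hybridised to single-colour Agilent expression arrays, 4 arrays in each of 6 groups. The groups were control females, acrylamide females, control males and acrylamide males collected at 10 PM, and control females and acrylamide females collected at 10 AM. Acrylamide, a small reactive amide, was dosed through drinking water (3 mg per kg of body weight daily), first of the dams, starting on gestational day 6, and later of their offspring until postnatal day 35 ± 3, while control animals had tap water. The stated question was how this low dose changes gene expression and plasma hormones. No males collected at 10 AM were analysed here. The labels do not say whether the arrays of a group came from separate litters, and the p-values therefore speak only of array-to-array spread, which may be technical.

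The glucocorticoid receptor rests in the cytoplasm in a complex with HSP90 chaperones, moves to the nucleus when it binds corticosterone, and switches target genes there. Rats are active at night, and their corticosterone rises before the dark phase, so receptor targets in many tissues follow a daily rhythm. Metallothioneins are small cysteine-rich proteins that hold zinc and copper, and their genes are switched on by metals, through the factor MTF1, and by glucocorticoids.

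The 2 metallothionein genes are neighbours, and their start regions are shown because the 2 transcripts varied together across arrays, as given further on. The windows run from 250 bases before to 50 bases after the start of transcription in RefSeq on build GRCr8, both on the minus strand: chr19:10832926-10833225 for Mt1, the current symbol of Mt1a, and chr19:10838659-10838958 for Mt2A. Capitals mark the core of the metal response element, searched as TGCGCNC and TGCACNC on both strands.
Mt1 promoter: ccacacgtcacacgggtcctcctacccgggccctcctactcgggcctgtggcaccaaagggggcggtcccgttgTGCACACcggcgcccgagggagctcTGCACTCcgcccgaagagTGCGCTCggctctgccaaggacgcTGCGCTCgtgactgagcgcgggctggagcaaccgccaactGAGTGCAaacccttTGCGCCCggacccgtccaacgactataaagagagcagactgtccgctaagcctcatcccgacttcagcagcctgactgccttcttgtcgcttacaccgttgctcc
Mt2A promoter: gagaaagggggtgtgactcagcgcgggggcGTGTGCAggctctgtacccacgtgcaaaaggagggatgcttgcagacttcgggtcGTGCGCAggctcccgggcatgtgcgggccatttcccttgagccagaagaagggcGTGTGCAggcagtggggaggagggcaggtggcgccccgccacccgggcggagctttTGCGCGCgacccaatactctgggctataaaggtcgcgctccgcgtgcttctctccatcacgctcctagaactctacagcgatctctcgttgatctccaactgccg
The Mt1 window held 6 such cores and the Mt2A window 4. At least 1 core was present in 24.2% of 33469 RefSeq windows of the same length, while 0.0388% held as many as Mt1 and 0.439% as many as Mt2A. The glucocorticoid half-site AGAACA was in 20.7% of all windows and in none of the 12 windows found for 7 members, which says only that these letters are not in these windows.

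Probe sequences show what the array reads, with probe positions on build rn4 as the scanner files give them. The second Mt2A probe, at chr19:11268168-11268227 on the minus strand, lies in the cysteine-rich coding part, and capitals mark 7 cysteine codons TGC of its reading frame.
Mt2A probe A_64_P158939: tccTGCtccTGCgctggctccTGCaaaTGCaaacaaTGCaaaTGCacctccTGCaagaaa
The 2 Nr3c1 probes, at chr18:32371607-32371666 and chr18:32375401-32375460 on the minus strand, gave different answers on time of day, and the last 30 bases of each are shown with G and C in capitals.
Nr3c1 probe A_44_P1003794: ttttatttttCatttaaatttGCtGttCtG
Nr3c1 probe A_64_P269447: aaatGaCtGCCttaCtaaGaaaGGttGCCt
Over its 60 bases the former probe had 23.3% G and C and the latter 35.0%. The former was the brighter and stood for the gene in the tests.

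Levels are given as log2 of the processed signal minus the array's own 75th percentile, so 0 is the signal that 25% of the array's probes exceed, and a difference of 1 is 2-fold. Levels of different genes are not compared, because each probe binds with its own strength. Tests used limma on all 24 arrays with group means, and a gene was called when its Benjamini-Hochberg adjusted p over 20284 genes was under 0.05.

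A few facts about the arrays touch every result. The 10 PM and 10 AM arrays lay on different slides and were read in different scan sessions with different scanner settings, so time of collection and scan cannot be told apart. At night, females lay on 1 slide and males on another, and on both the controls filled 1 row and the acrylamide arrays the other. There, sex cannot be told apart from slide, nor acrylamide from row. Thyroid follicular markers (12 genes, among them Tg and Tshr, the thyroglobulin and thyrotropin receptor genes) averaged 1.89 to 2.73 on 20 arrays of 5 groups, but 1.21, 1.41, 1.98 and -3.45 on the 4 arrays of acrylamide females at 10 AM. The lowest was replicate 1 of that group, where C cell markers (-2.66) and parathyroid markers (-5.28) were also the lowest of all arrays. On acrylamide male replicate 4 the parathyroid markers averaged -1.74 against 3.35 to 4.22 on the other night arrays. The values that changed most without these arrays are also given without them. Leaving them out does not make the rest even. Parathyroid markers averaged -2.55 on acrylamide female 10 AM replicate 3 and -0.72 on control female 10 AM replicate 1. Skeletal muscle markers averaged 1.09 on acrylamide male replicate 2 and 6.32 to 7.42 in control males. Pituitary markers averaged -2.07 to 1.9 in acrylamide males and -5.07 to -3.6 in control males.

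**Figure D1:**
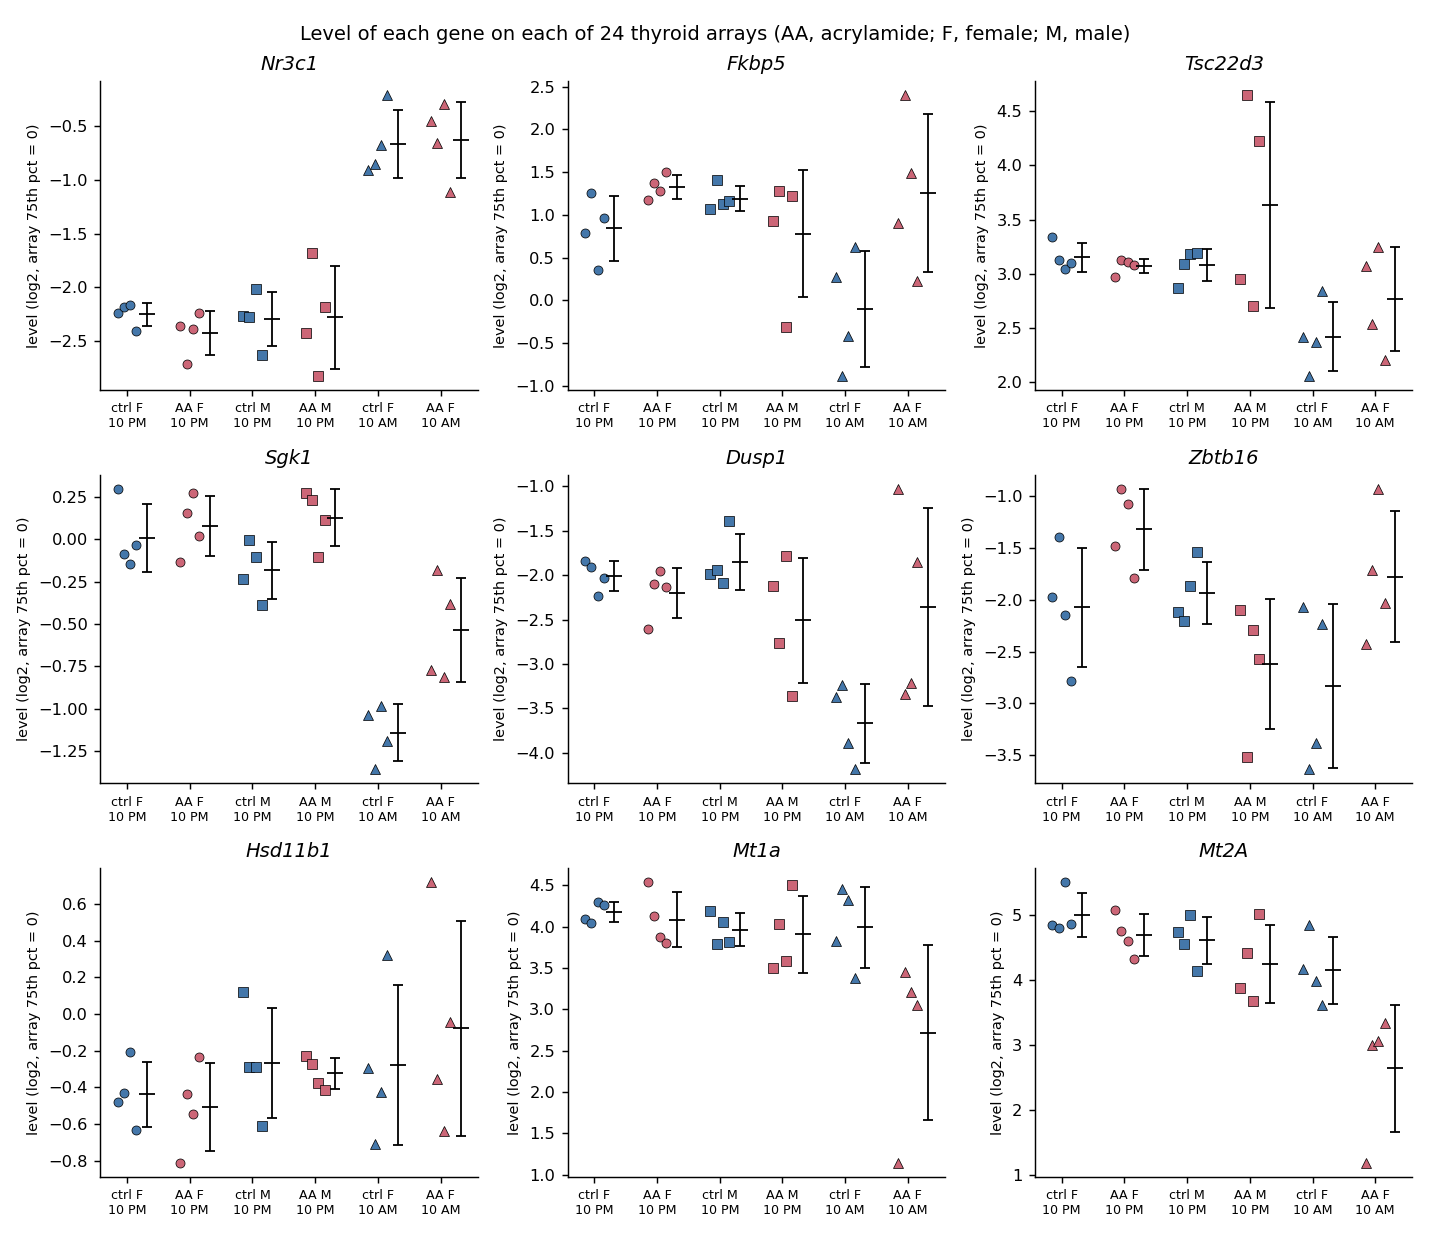
Level of each of the 9 genes (main probe; log2, with each array's 75th percentile at 0) on the 24 arrays. Points are arrays in 6 groups (blue control, red acrylamide; circles females and squares males at 10 PM, triangles females at 10 AM), and bars are mean ± SD of 4. Sgk1 was lower on all 8 morning arrays than on the night arrays of females, and both metallothioneins were lowest on 1 array of acrylamide females at 10 AM.

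At 10 PM no member passed the test between acrylamide and control glands. In females limma called 0 of the 9 genes, against a background of 0% of all genes, and none had an unadjusted p under 0.05, where 1.87% of all genes did. In males limma again called 0 of 9, with the background again at 0%, and no member had an unadjusted p under 0.05, where 13.6% of all genes did. The median difference of the members was -0.08 in females and -0.06 in males, beside 0.02 and 0.00 for all genes. Groups overlapped for every member in both sexes, while 5.46% of all genes in females and 4.46% in males did not overlap.

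The receptor itself did not separate at night. Nr3c1 differed by -0.17 (95% interval -0.63 to 0.28) in females and by 0.02 (-0.44 to 0.48) in males, and its other probe by -0.17 and 0.02. Tsc22d3, which encodes the anti-inflammatory protein GILZ, had levels of 2.95, 4.65, 2.71 and 4.22 in acrylamide males against 2.87 to 3.19 in control males. Replicates 2 and 4 were thus well above the controls and replicates 1 and 3 near or below them, and the difference of 0.55 (SE 0.31) did not pass (limma adjusted p = 0.41); without acrylamide replicate 4 it was 0.35 (adjusted p = 0.865). Hsd11b1, the enzyme that regenerates active glucocorticoid inside cells, differed by -0.07 in females and -0.06 in males, with 95% intervals from -0.57 to 0.43 and from -0.56 to 0.45.

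The other targets also overlapped with control at night. Sgk1 differed by 0.07 (SE 0.16) in females and 0.31 (SE 0.16; limma adjusted p = 0.376) in males. Fkbp5 averaged 0.84 ± 0.38 in control females and 1.33 ± 0.14 in acrylamide females (SD, n = 4), and 1.19 ± 0.15 and 0.78 ± 0.74 in males, where acrylamide replicate 3 stood alone at -0.31. Dusp1 averaged -1.85 ± 0.31 in control males and -2.51 ± 0.70 in acrylamide males. Both male spreads were wider with acrylamide, as was the median SD over all genes (0.389, and 0.25 in control males).

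The metallothioneins overlapped at night in both sexes. Mt1a read 4.20, 3.79, 4.06 and 3.81 in control males and 3.50, 4.03, 3.58 and 4.51 in acrylamide males. Mt2A read 4.75, 4.56, 5.01 and 4.15 in control males and 3.88, 4.42, 3.68 and 5.01 in acrylamide males. In both genes acrylamide replicate 4 was the highest of its group, and it is the night array with low parathyroid markers. Over deviations from group means on 24 arrays, those markers correlated with Mt1a at r = 0.33 and with Mt2A at 0.22. The Mt2A difference was -0.36 (95% interval -1.16 to 0.43) in males and -0.31 (-1.11 to 0.48) in females, and that of Mt1a -0.06 (-0.82 to 0.70) and -0.09 (-0.85 to 0.67). In males, Mt2A without acrylamide replicate 4 differed by -0.62 (limma adjusted p = 0.843).

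Zbtb16 is a zinc finger transcription factor induced strongly by glucocorticoids in other cells. Among the 9 members at night, its acrylamide difference varied most between the sexes. In females its levels were -1.97, -1.39, -2.15 and -2.78 in controls and -1.48, -0.93, -1.08 and -1.79 with acrylamide, a difference of 0.75 (SE 0.39). In males they were -2.12, -2.20, -1.87 and -1.54 in controls and -2.10, -3.51, -2.29 and -2.57 with acrylamide, a difference of -0.68 (SE 0.39). The ranges overlapped in both sexes. The acrylamide difference in males minus that in females was -1.44 (95% interval -2.58 to -0.30, limma unadjusted p = 0.0161). It did not pass limma's test over all genes (adjusted p = 0.996), which called 0% of genes and 0 members. An unadjusted p under 0.05 was found for 2.2% of all genes.

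At 10 AM in females the 2 called members moved in opposite directions. Sgk1 rose and Mt2A fell with acrylamide, 2 of 9 members against a background of 2.11% of genes (0.434% higher and 1.67% lower). Fkbp5, Dusp1 and Zbtb16 had positive differences above 1 and Mt1a a negative one that did not pass. The members' median difference was 0.34 and that of all genes -0.11, and 6 of 9 members had an unadjusted p under 0.05, as did 23.9% of all genes. The 2 called members were also the 2 whose groups did not overlap, as for 8.58% of all genes.

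Sgk1 encodes the serum- and glucocorticoid-induced kinase, which keeps sodium channels at the cell surface. Its levels were -1.04, -1.36, -0.99 and -1.19 in morning control females and -0.77, -0.18, -0.81 and -0.38 in morning acrylamide females. All 4 acrylamide arrays lay above all 4 controls, as for 1.87% of all genes. The difference was 0.61 (SE 0.16, 1.52-fold; limma adjusted p = 0.0469). Its size was 0.63 among the 5 arrays of 1 slide and 0.62 among the 3 of the other, but with slide as a block the adjusted p was 0.079. The call was also lost without any 1 of the 4 controls or acrylamide replicates 1 (0.69, adjusted p = 0.0934) or 2 (difference 0.49 to 0.70 over 8 omissions, adjusted p 0.0182 to 0.149).

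Mt2A stood at 4.17, 4.85, 3.98 and 3.62 in morning control females and at 1.19, 2.99, 3.06 and 3.34 in morning acrylamide females. Every acrylamide array was below every control, as for 6.71% of all genes, and replicate 1 was far below the other 3. The difference was -1.51 (SE 0.38, 2.85-fold lower; limma adjusted p = 0.0447). Without that replicate it was -1.03 (adjusted p = 0.168), and the call was lost too without any 1 of the 4 controls (difference -1.74 to -1.03, adjusted p 0.0118 to 0.168). Within the 2 slides it was -1.31 and -1.36, and with slide as a block the adjusted p was 0.0893. The latter slide held 1 control, at 3.62, and acrylamide replicates 1 and 4, at 1.19 and 3.34. Its value of -1.36 thus rested largely on replicate 1. The coding-sequence probe printed above, which sits on 1 spot per array rather than 10, read -1.19 (SE 0.38; adjusted p over all probes 0.0856).

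Mt1a read 3.83, 4.45, 4.32 and 3.38 in morning controls and 1.14, 3.46, 3.22 and 3.06 with acrylamide. The groups overlapped only through the lowest control and the highest acrylamide array. The difference was -1.28 (SE 0.36; limma adjusted p = 0.0633) and -0.75 without acrylamide replicate 1 (adjusted p = 0.221). Mt3, the metallothionein best known from brain, stood at 4.89 to 5.37 on the morning control arrays and at -1.06, 4.40, 4.05 and 3.92 with acrylamide. All its morning acrylamide values were lower than its controls, as for 6.71% of all genes. Its difference was -2.35 (limma adjusted p = 0.0797), and -1.05 without the 2 arrays that stand apart (adjusted p = 0.0396). In males at 10 PM Mt3 lay the other way, at 5.44, 6.27, 5.51 and 6.50 with acrylamide and 4.88 to 5.26 in controls. Those groups did not overlap, as for 4.46% of all genes in either direction, and no gene was called there. Mt4, the metallothionein of squamous epithelium, instead read 3.17, 0.78, 5.68 and -6.68 with acrylamide and -5.89, -6.93, -7.24 and -0.80 in controls, where 1 of 4 arrays was well above background.

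The metallothionein values moved with the follicular markers, among other marker lists. Averages of the follicular markers were 2.11, 2.35, 2.23 and 1.89 on the morning controls, and on the acrylamide arrays in replicate order -3.45, 1.41, 1.21 and 1.98. Oesophageal epithelium markers (7 genes) averaged -2.12 to -0.96 on those controls and 2.55, -0.44, 2.41 and -2.14 on those acrylamide arrays. Across 24 arrays, deviations from group means of the follicular average correlated with those of Mt1a at r = 0.84 and of Mt2A at r = 0.77. Over the 22 arrays left without the 2 that stand apart these were 0.46 and 0.49. C cell markers gave 0.73 and 0.63 over 24 arrays, and 0.24 and 0.20 over 22. Skeletal muscle markers gave -0.34 and -0.385 over 24 arrays, and -0.54 and -0.55 over 22. Cartilage markers gave -0.41 and -0.53 over 22 arrays. Oesophageal markers gave -0.36 for both genes over 24 arrays, and 0.18 and 0.08 over 22. These arrays share their dissection and scan, and the part of tissue make-up in the lower metallothionein signal was not tested. In bulk tissue, fewer cells of a type and less RNA per cell cannot be told apart. Slc26a4, 1 of the 12 follicular markers, was not well above background on any night array, and outside acrylamide females at 10 AM the other 11 markers were well above background on all arrays.

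**Figure D2:**
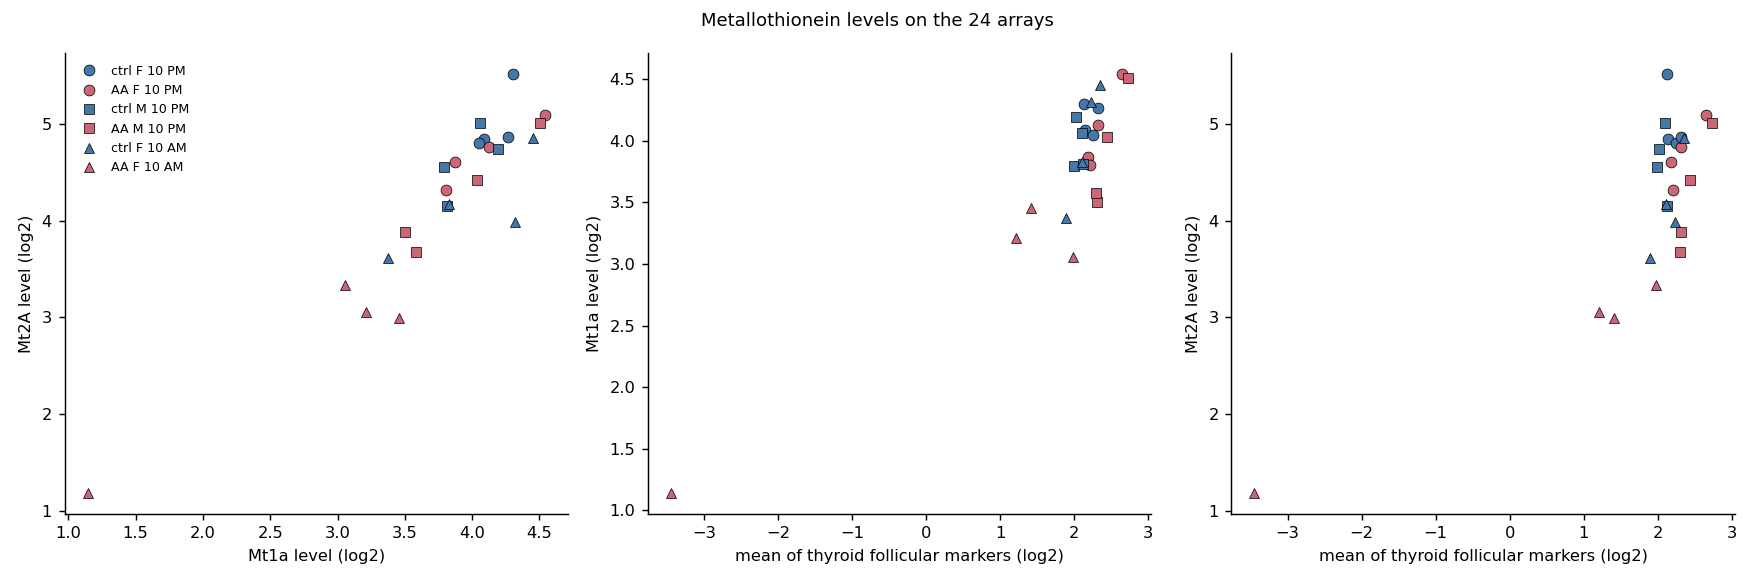
Mt2A against Mt1a (left), and Mt1a (middle) and Mt2A (right) against the mean of 12 thyroid follicular markers, all log2 levels, on 24 arrays; colours and shapes mark the 6 groups. The 2 genes varied together, and acrylamide female 10 AM replicate 1, at 1.14 for Mt1a, 1.19 for Mt2A and -3.45 for the markers, sat alone at the lower left of each panel.

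Fkbp5 and Dusp1 had wide spreads in the acrylamide morning group, as did the array as a whole. The median SD over all genes was 0.453 there and 0.247 in the morning controls. Zbtb16 had an SD of 0.634 with acrylamide and 0.79 in controls. Fkbp5, whose product binds HSP90 and dampens the receptor, read 0.27, -0.88, -0.42 and 0.62 in controls and 0.90, 2.40, 1.49 and 0.22 with acrylamide. Only acrylamide replicate 4 fell among the controls, and the difference was 1.36 (SE 0.39; limma adjusted p = 0.0661). It was 2.29 on 1 slide and -0.06 on the other, where 1 control stood against 2 acrylamide arrays.

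Dusp1, a phosphatase that turns off MAP kinases, read -3.37, -3.23, -3.89 and -4.18 in controls and -1.03, -3.34, -3.22 and -1.86 with acrylamide. Replicates 1 and 4 were far above the controls and replicates 2 and 3 lay near their upper end. The difference of 1.31 (SE 0.40) had a limma adjusted p of 0.0775 and was 0.86 without replicate 1 (adjusted p = 0.32), and within the slides it was 0.22 and 2.74. Zbtb16 differed by 1.05 (SE 0.39; adjusted p = 0.117), with 1.71 on 1 slide and 0.01 on the other.

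The remaining morning members did not separate. Tsc22d3 differed by 0.34 (95% interval -0.31 to 1.00), Hsd11b1 by 0.20 (-0.30 to 0.70; -0.07 without acrylamide replicate 1, which read 0.72) and Nr3c1 by 0.03 (-0.42 to 0.49), with 0.15 at its other probe. No member's acrylamide difference was shown to depend on time: limma called 0 of 9 members in the test of 10 PM against 10 AM, against 0% of all genes. The unadjusted p was under 0.05 for Sgk1, Mt1a, Mt2A and Dusp1, as for 16.3% of all genes, and the largest of these differences was that of Dusp1 at -1.50 (SE 0.57, adjusted p = 0.232), which was -1.06 without acrylamide 10 AM replicate 1, where that of Mt1a was 0.66 and that of Mt2A 0.71.

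**Figure D3:**
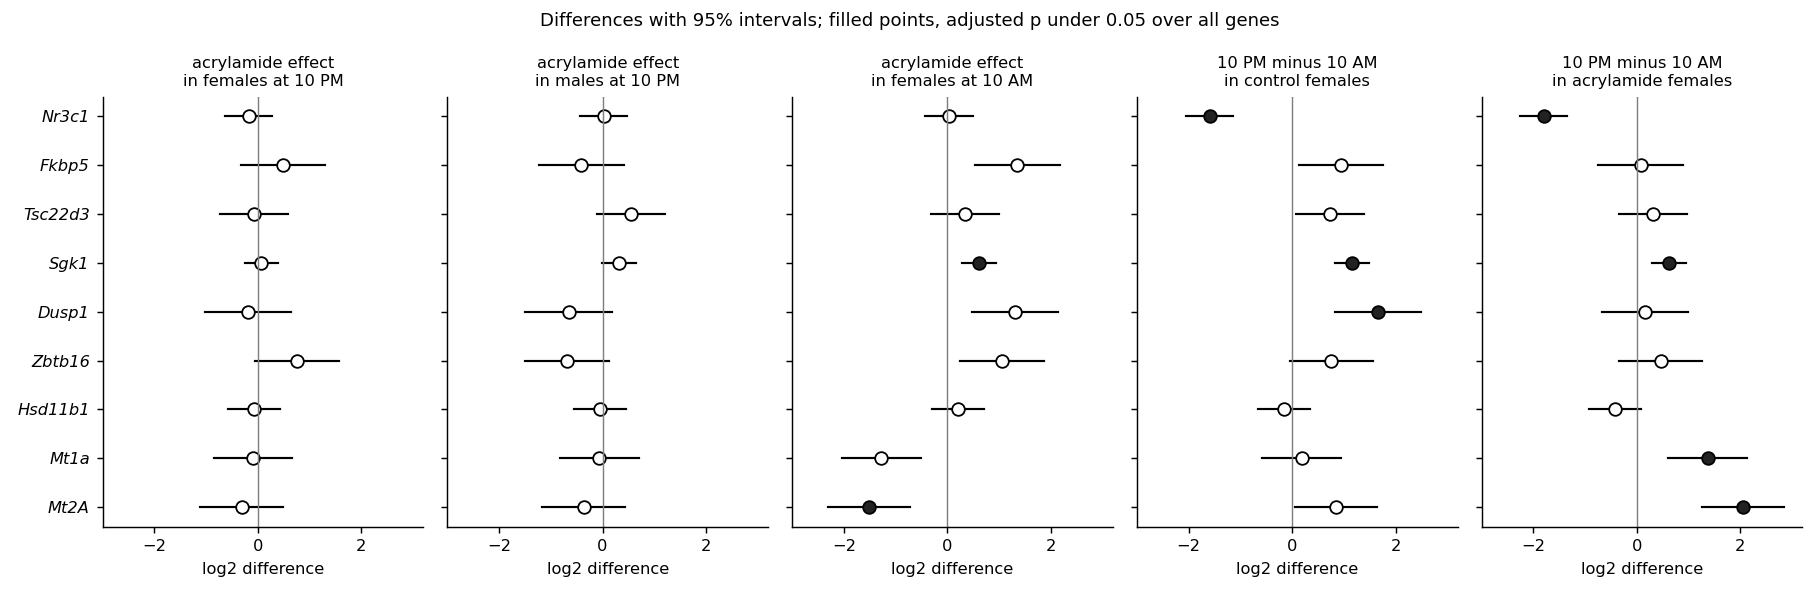
Log2 differences (points) with 95% intervals (lines) of the 9 genes in 5 comparisons; filled points have an adjusted p under 0.05 over 20284 genes. The night acrylamide columns hold no filled point, the morning acrylamide column holds Sgk1 and Mt2A, and Nr3c1 and Sgk1 are filled in both columns on time.

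More genes were called on time of collection than on acrylamide, among the members and over the whole array. In control females 3 of 9 members passed between 10 PM and 10 AM, against a background of 48.6% of genes (20.8% higher and 27.8% lower at night), and in acrylamide females 4 of 9, against 56.2% (27.5% higher and 28.8% lower). Both shares were below the background. An unadjusted p under 0.05 was found for 6 of 9 members in controls, as for 54.2% of all genes, and for 4 of 9 in acrylamide females, as for 61.1%. Night and morning arrays did not overlap for 4 of 9 members in controls (57% of all genes) and for 4 of 9 in acrylamide females (45.9%). Sgk1 was higher at night in both, Dusp1 in controls, and Mt1a and Mt2A in acrylamide females, while the main Nr3c1 probe was lower in both.

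Sgk1 at night stood at 0.30, -0.09, -0.15 and -0.03 in control females and at -0.13, 0.16, 0.28 and 0.02 in acrylamide females. Each value was above each morning value of its own treatment. The rise was 1.15 (SE 0.16, 2.22-fold; limma adjusted p = 3.52e-06) in controls and 0.62 (SE 0.16, 1.53-fold; adjusted p = 0.00236) with acrylamide. It was called in both under each of the alternatives and array omissions tried. In the order of group means Sgk1 was highest in acrylamide males (0.13), acrylamide females (0.08), control females (0.01) and control males (-0.18) at night, whose ranges overlapped. Morning acrylamide females (-0.54) came next and overlapped with control males alone among the night groups, and morning control females (-1.14) came last and overlapped with no other group.

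Dusp1 stood at -1.85, -1.91, -2.24 and -2.04 in control females at night, above all 4 morning controls. The rise was 1.66 (SE 0.40, 3.16-fold; limma adjusted p = 0.00175). With normexp background correction it was 0.55 and was not called (adjusted p = 0.104). In acrylamide females, whose night levels were -2.61, -2.10, -1.95 and -2.14, the difference was 0.16 (SE 0.40; adjusted p = 0.75) and rested on morning replicate 1 at -1.03: without that array it was 0.60 (adjusted p = 0.16).

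Mt2A was 4.85, 4.80, 5.51 and 4.87 in control females at night and 5.09, 4.76, 4.61 and 4.32 in acrylamide females. The controls overlapped their morning values and differed by 0.85 (SE 0.38; limma adjusted p = 0.0719), while the acrylamide arrays did not overlap and differed by 2.05 (SE 0.38, 4.15-fold; adjusted p = 0.000146). The second Mt2A probe gave 0.82 and 1.92. In controls the difference at the main Mt2A probe was called under 6 of 9 processing alternatives and in 1 of 8 single array omissions. For Mt1a the differences were 0.18 in controls (adjusted p = 0.712) and 1.37 in acrylamide females (2.58-fold; adjusted p = 0.00339). Without acrylamide 10 AM replicate 1 the latter was 0.84 and Mt2A's 1.57, both still called (limma adjusted p = 0.0092 and 0.000329). The time comparison of acrylamide females and the morning acrylamide comparison share the same 4 morning arrays.

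Fkbp5, Tsc22d3 and Zbtb16 were higher at night in control females without passing, at 0.95 (limma adjusted p = 0.0525), 0.73 (0.0604) and 0.76 (0.113). They were called under 6, 5 and 4 of 9 processing alternatives, and in 3, 1 and 1 of 8 single array omissions. Tsc22d3 at night, 3.34, 3.12, 3.04 and 3.10, lay above its morning controls at 2.41, 2.06, 2.37 and 2.84, as 26.8% of all genes did. In acrylamide females the 3 differences were 0.08, 0.31 and 0.46, all with adjusted p of 0.323 or more. Hsd11b1 differed by -0.16 and -0.43 (adjusted p = 0.617 and 0.136), the latter -0.16 without acrylamide 10 AM replicate 1.

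The answer for the receptor gene depended on the probe. The main Nr3c1 probe read -2.25, -2.19, -2.17 and -2.41 in control females at night and -0.91, -0.85, -0.68 and -0.21 in the morning, a difference of -1.59 (SE 0.22, 3.02-fold lower at night; limma adjusted p = 4.18e-06). All night arrays lay below all morning arrays, as for 30.2% of all genes. In acrylamide females it differed by -1.80 (adjusted p = 1e-06). The other Nr3c1 probe read -3.64, -3.92, -3.57 and -3.68 at night and -4.11, -3.74, -4.13 and -3.54 in the morning, a difference of 0.18 (SE 0.24; adjusted p over all probes 0.586), and -0.14 in acrylamide females (adjusted p = 0.657).

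Base composition moved with this contrast. Over the 275 probes with under 30% G and C, to which the main Nr3c1 probe belongs, the median night minus morning difference was -0.86 in control females and 13.1% of probes were higher at night. Over the 5477 probes with 35 to 40% it was 0.01 and over the 249 with 65% and more -1.57. With each array centred within classes of base composition the main Nr3c1 probe differed by -0.61 (limma adjusted p = 0.0063), and Sgk1 and Dusp1 by 1.27 and 1.67. Of 1799 genes with several probes and at least 1 of them called on time in controls, 666 (37%) also had a probe of the other sign. The part of base composition in the Nr3c1 result was not tested beyond this.

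**Figure D4:**
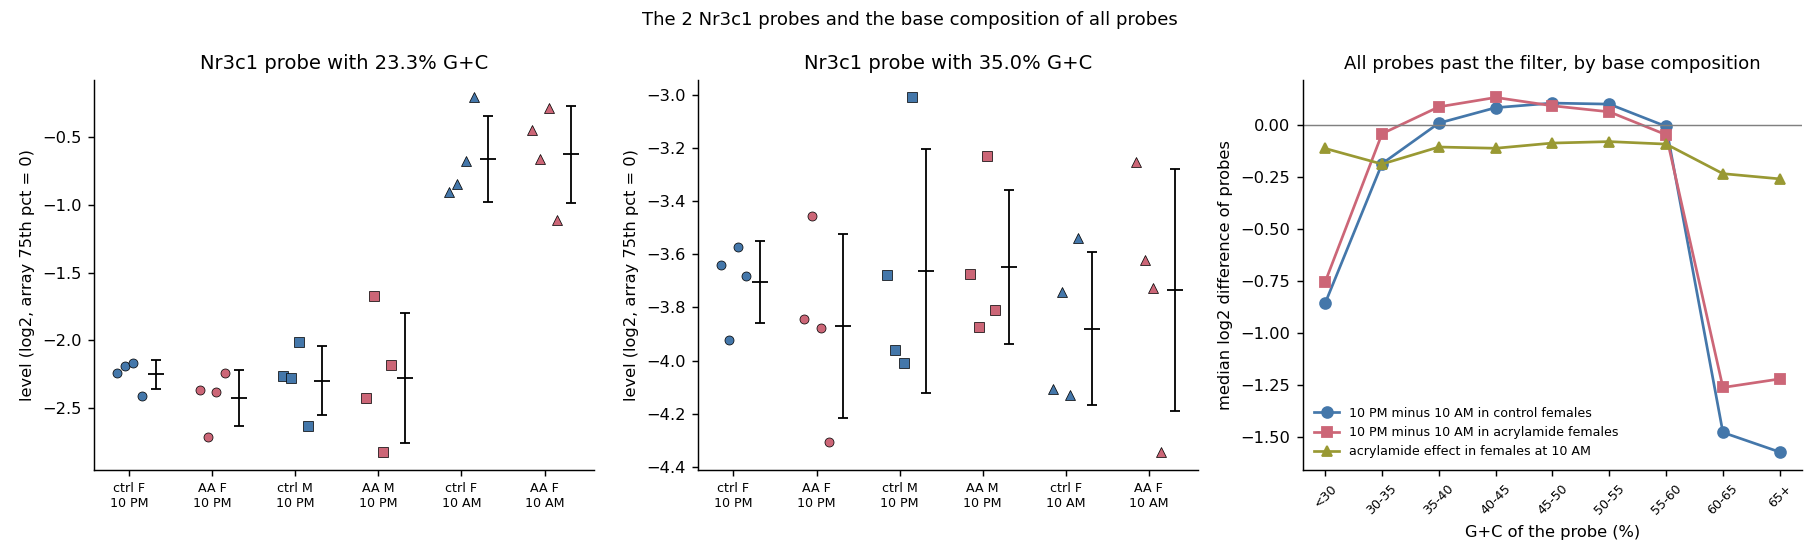
Left and middle, levels (log2, array 75th percentile at 0) of the 2 Nr3c1 probes on 24 arrays with mean ± SD of 4. Right, median log2 difference of 23414 probes by percent of G and C, for 3 comparisons. The 23.3% probe was higher on all 8 morning arrays and the 35.0% probe was not, and the night minus morning medians were -0.75 or lower for probes with under 30% and with 60% or more G and C.

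The wider pathway was read from 6 lists. Limma called 0 of their 109 tested genes in any of the 3 acrylamide comparisons, while 5, 21 and 31 had an unadjusted p under 0.05 in females at 10 PM, males at 10 PM and females at 10 AM (4.59%, 19.3% and 28.4%, against 1.87%, 13.6% and 23.9% of all genes). Among 31 tested of 35 other glucocorticoid-induced genes the morning acrylamide median was 0.40, with 23 of 31 positive, beside -0.11 for all genes; the nearest to the threshold were Sesn1, a stress-induced sestrin, at 1.92 (limma adjusted p = 0.0542; well above background on 1 of 4 morning control arrays) and Klf15, a metabolic transcription factor, at 1.01 (0.0557), both chosen here after their values were seen. Without the 2 arrays that stand apart they were 1.35 and 0.81 (adjusted p = 0.217 and 0.19). In the same list 9 genes were higher and 5 lower at night in control females, and 6 and 7 in acrylamide females. That is 45.2% and 41.9% of the list, beside 48.6% and 56.2% of all genes. These included Cdkn1a, the p21 cell cycle inhibitor, at -2.02 (adjusted p = 7.3e-07) and Hif3a, an oxygen-response factor well above background on 3 of 4 night arrays, at -2.69 (8.87e-07) in controls, and the clock gene Per1 at -2.05 (0.000161) in acrylamide females. Fam107a, at -1.60, and Sesn1, at 1.89 with 1 of 4 morning arrays well above background, completed the largest in controls, and Arl4d at 1.97, with Hif3a at -2.66 and Cdkn1a at -1.73, those in acrylamide females.

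Among the 22 chaperones and cofactors of the receptor, 8 were higher and 3 lower at night in controls, and 11 and 2 in acrylamide females, or 50% and 59.1% beside 48.6% and 56.2% of all genes. Hsp90ab1, the HSP90 chaperone that holds the receptor, was lower by -0.98 (SE 0.14; limma adjusted p = 6.76e-06) and -1.03, and the coactivator Ncoa2 by -2.11 and -1.42. The co-chaperone Fkbp4 (0.89) was higher in controls, and the coactivators Ncoa1 (0.84) and Ep300 (0.81) in acrylamide females. Of the 9 tested genes of glucocorticoid synthesis, transport and metabolism, 2 were higher and 3 lower in controls and 3 and 4 in acrylamide females (55.6% and 77.8%, beside 48.6% and 56.2% of all genes); without the 2 arrays that stand apart the latter counts were 2 and 3. Srd5a1, a steroid reductase, rose by 0.83 in controls, the steroid hydroxylase Cyp21a1 differed by -1.55 and -1.33, and the efflux pump Abcb1b by -1.25 in acrylamide females. The steroidogenic enzyme Cyp11b2 was not well above background on any night array of females, and 3 of 4 arrays measured it in each morning group. It was at least 3.82-fold lower at night in controls and 2.86-fold in acrylamide females. Without the 2 arrays that stand apart the latter was not called (limma adjusted p = 0.0583). The receptor Crhr1 was at least 2.79-fold lower at night in acrylamide females, and in controls 1 of 4 night and 2 of 4 morning arrays measured it. Among the groups of females, Cyp11b2 reached the filter only in the morning groups and Crhr1 only in the morning acrylamide group, where they were high. Their calls, counted above, and these limits therefore lend no support of their own.

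Among 23 tested genes of zinc, copper and iron handling, 6 were higher and 2 lower at night in controls, and 10 and 4 in acrylamide females (34.8% and 60.9%, beside 48.6% and 56.2% of all genes). The zinc exporter Slc30a4 rose by 1.70 (limma adjusted p = 1.32e-05) and 1.14 and the ferritin heavy chain Fth1 by 0.62 and 1.24. In controls the copper pump Atp7b differed by -0.94 and the zinc importer Slc39a14 by -0.71. In acrylamide females Mt3 rose by 2.71 (adjusted p = 0.00359), and by 1.41 (1.55e-05) without the 2 arrays that stand apart. Mt4 was not well above background on any night array of females and was at least 271-fold lower there than in the acrylamide morning group, where 3 of 4 arrays measured it. That limit ran from 86.5-fold without morning replicate 3 to 1500-fold without replicate 4. Mt4 was tested only because it passed the filter in that morning group, where it was high. Its call and this limit therefore lend no support of their own. The 2 highest Mt4 values stood on replicates 1 and 3, the arrays with the highest oesophageal marker averages, and 1 of 4 morning controls measured the gene; the part of those markers in the Mt4 result was not tested.

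Of 12 dual specificity phosphatases, relatives of Dusp1, 4 were higher and 2 lower at night in controls and 2 and 2 in acrylamide females (50% and 33.3%, beside 48.6% and 56.2% of all genes). Dusp4 was lower by -2.32 (limma adjusted p = 2.53e-05) and -2.37, and it was well above background on 1 and 2 of 4 night arrays. Among the groups of females it reached the filter only in the morning groups, where it was high, so its calls lend no support of their own. Dusp14 was higher by 1.85 and Dusp7 (3 of 4 morning arrays well above background) by 0.68 in controls and Dusp9 lower by -0.86, while in acrylamide females Dusp10 was lower by -1.65 and Dusp22 and Dusp6 higher by 0.54 and 0.50. Of 12 genes around Sgk1, 4 were higher at night in controls and 5 in acrylamide females, and none was lower. All genes called higher at night were 20.8% and 27.5%, and the list's calls, 33.3% and 41.7% of it, lay below the 48.6% and 56.2% called over all genes in either direction. The ubiquitin ligase Nedd4l, a substrate of Sgk1, rose by 0.97 (adjusted p = 0.000592) and 1.05. Its relative Nedd4 rose by 1.09, Ndrg1, whose product Sgk1 phosphorylates, by 1.36, and Tsc22d4, a relative of Tsc22d3, by 1.47 in controls. The sodium channel subunits Scnn1b, Scnn1g and Scnn1a rose by 2.33, 1.53 and 0.91 in acrylamide females, and by 1.57, 1.14 and 0.72 without the 2 arrays that stand apart. Medians of the 6 lists at night ran from -0.45 to 0.45 in controls and from -0.17 to 0.56 in acrylamide females, beside 0.02 and 0.03 for all genes. Without the 2 arrays that stand apart the acrylamide female medians ran from -0.43 to 0.74, and that of the glucocorticoid-induced list turned from -0.17 to 0.14.

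Members also varied together inside the groups. Over deviations from group means on 24 arrays, Mt1a and Mt2A correlated at r = 0.89 (0.71 over the 22 arrays), and Nr3c1 and Tsc22d3 at 0.78 (0.79). Nr3c1 ran against Dusp1 at -0.48 (-0.80). All Nr3c1 values here are of its main probe, whose time result the other probe did not share. Mt1a ran against Hsd11b1 at -0.73 (-0.51) and against Dusp1 at -0.70, which shrank to -0.26 without the 2 arrays. Among 14214 named genes the closest to Mt1a were Bcl2 (r = 0.94), Mycn (0.93) and Nat8f1 (0.93), and to Mt2A Abcg3l1 (0.93), Bcl2 (0.92) and Garin5a (0.91). Over the 22 arrays these were 0.76, 0.80 and 0.85 for Mt1a and 0.83, 0.78 and 0.76 for Mt2A. For Nr3c1 they were Znhit6 (0.92), Rwdd4 (0.91) and Plaa (0.91), for Tsc22d3 N4bp1 (0.93), Cdh6 and Mbnl2 (0.91 each), and for Dusp1 Gbe1 (0.93), Atp5f1b (0.92) and Mrpl16 (0.92), the last 3 at 0.87, 0.85 and 0.82 over the 22 arrays. Sgk1 and Zbtb16 had looser neighbours, led by Pip4k2a (0.78) and Kiaa1671 (0.78), while Fkbp5 was led by Rpp25l (0.86) and Hsd11b1 by Ctbp1 (0.87). All these values share the arrays' common scan and tissue make-up and are descriptions only.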

How the data were processed

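Cy3-labelled total RNA of thyroid glands was hybridised to Agilent arrays, and the deposited scanner files hold spot intensity values per the file headers, made with Agilent Feature Extraction 10.1.1.1 (background-subtracted processed signal, rn4 annotation). The deposited series matrix holds log2 values of the same arrays, each column with a median of 0, which correlated with the scanner values at 1.0; its centring is not given in the sources used here. Here control spots were dropped, spots of a probe were averaged, and log2 processed signal minus each array's 75th percentile was used. A probe was tested when well above background on at least 3 of 4 arrays of a group (23414 of 30367 probes), with the probe of highest mean standing for its gene. Names came from RefSeq through 18005 accessions, 2668 symbols and 547 synonyms, and 9147 probes kept the array's name.

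Groups were compared with limma 3.58.1 in R 4.3.3 (lmFit and eBayes, group means of 24 arrays, 18 residual degrees of freedom, Benjamini-Hochberg), a step tested on simulated data. The number of arrays limits the precision. The members and lists were chosen with earlier results of these data known. Named were all members and, per list and comparison, up to 4 called genes of largest difference, and for each member the 3 named genes of highest correlation. Of these, 1 list gene is not reported here. Per-gene bounds took the measured group's mean over the mean of, per array, the higher of the probe's own signal and the lowest signal well above background. Alternatives were quantile normalisation, normexp (offset 50), the series matrix, no filter, all probes, only the compared groups, replicate or slide as a block, array weights, and omission of arrays; centring by base composition and bounds without single arrays were added after seeing the data. Replicate numbers were checked for pairing: deviations of same-numbered arrays correlated at -0.228 to 0.354, so they were not treated as pairs. Promoter windows and gene symbols are RefSeq's on GRCr8. Figures were drawn with matplotlib.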

Additional observations from a re-analysis of the deposited data

Results flagged for a closer look

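Among the members' 54 gene and group combinations, 2 held an array that lay apart from the other 3 of its group by Dixon's test, and chance sets about 1 in 20 apart, or 2.7 of 54. Mt2A on control female 10 PM replicate 3 was 5.51 while the others lay at 4.80 to 4.87. Mt2A on acrylamide female 10 AM replicate 1 was 1.19 while the others lay at 2.99 to 3.34; this is also the array with the lowest mean of thyroid follicular markers, -3.45, and the part of that in the Mt2A value was not tested.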

How the results depend on the processing

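Of 1269 member values under the alternatives, none that was called changed sign, 29 lost a call and 36 gained one. The morning acrylamide comparison moved most: its 427 called genes and 2 called members became 960 and 4 with quantile normalisation, 222 and 0 with normexp, 12 and 0 in the series matrix, 98 and 0 without the filter, 0 and 0 with only the compared groups, 86 and 0 with slide as a block, 3 and 0 with array weights, and 44 and 0 without the 2 arrays that stand apart, and with all probes 1 member was called. Over single omissions they ranged from 3 to 2127 genes and from 0 to 4 members. In males at 10 PM, 5 genes were called with normexp, 2 in the series matrix, 1 without the filter, 2 with array weights, 3 with centring by base composition (chosen after seeing the data) and 0 to 8 over omissions. For acrylamide by time, omissions gave 0 to 290 genes. In control females the 3 members called on time became 7 with quantile normalisation, the series matrix or array weights, 6 with only the compared groups or centring by base composition, and 3 to 5 over omissions. With the replicate number as a block, 0 members were called in the morning (Sgk1 adjusted p = 0.0597, Mt2A 0.0534) and 2 genes in males at 10 PM; 5 of 24 arrays matched best with their own number, so the numbers gave no pairing, and the block changed no other call of a member. The cause of these changes was not tested.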
